A study of Arabidopsis thaliana with 8 samples.

Results

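Aquaporins, also called major intrinsic proteins, are membrane channels that let water and small uncharged solutes cross cell membranes. The family was taken as the 35 Arabidopsis thaliana loci of 5 subfamilies, matched by locus code, and 35 of 35 were found among the 27826 loci measured. They comprise 5 PIP1, 8 PIP2, 10 TIP, 9 NIP and 3 SIP genes. PIPs (plasma membrane intrinsic proteins) carry water, and in some cases carbon dioxide or hydrogen peroxide, across the cell surface. TIPs (tonoplast intrinsic proteins) sit mainly in the vacuole membrane, NIPs (NOD26-like intrinsic proteins) carry metalloids and small solutes such as boric acid, arsenite or lactic acid, and SIPs (small basic intrinsic proteins) are found in the endoplasmic reticulum. In leaves, PIPs and TIPs set much of how easily water moves between veins and cells.

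The study profiled shoots on 8 Affymetrix arrays, with 4 groups of 2. The labels call plants juvenile at 2 weeks and adult at 3 weeks of age, all grown on soil under a 12 h photoperiod. At the end of the light phase plants of each age were put for 24 h in darkness either under deionised water (35 l, 25 cm deep) or, as dark controls, in tanks without water. The design allows submerged plants to be set against dark controls of their own age, adults against juveniles under one treatment, and the responses at both ages against each other. Sample titles begin with "dark" for the submerged plants and "ctrl" for the controls, while the source, description and treatment labels name the former submerged and the latter kept in darkness, and the groups follow those labels. No genotype, strain or mutation is given for any group, and the labels do not say whether the arrays of a group came from separate plants or pools. The p-values therefore set differences against the spread between these arrays, which may not be the spread between independent plants. Values are log2 signals, 1 per locus and array, and genes carry the symbols of RefSeq, with the standard family name beside the symbol where it differs. A gene is described as having risen or fallen where its limma p-value, adjusted by the Benjamini-Hochberg method over all 27826 loci, was under 0.05.

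Array medians lay between 6.13 and 6.30. Of 4 leaf markers, RBCS1A (12.58 to 12.84) and CAB1 (10.79 to 10.98) were bright, RBCS3B lay between 7.02 and 8.23, and LHCA1 lay only between 4.03 and 5.20. Of 4 root markers, EXPA7 and COBL9 stayed at or below 3.49 and CASP1 at or below 5.67. The other root marker, PYK10, lay between 7.42 and 10.74 and was lower in the submerged than in the control arrays at each age. It was also lower in adult than in juvenile arrays, with means of 9.87 against 10.59 in controls and 7.66 against 9.46 under water. Its part in the aquaporin results was not tested. The 2 seed and 3 pollen or flower markers stayed between 2.39 and 4.20. In whole shoots, fewer cells of a type and less RNA per cell cannot be told apart.

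Under submergence most PIP genes and some TIP genes fell, while a few NIP genes, SIP1;2 and, in adults, TIP4;1 rose. In juvenile plants 14 of the 35 genes fell and 3 rose, so 48.6% of them changed, against 34.2% of all loci. Among all loci, 18.8% fell and 15.5% rose. In adult plants 13 fell and 5 rose, or 51.4% of the family against 33.6% of all loci, of which 18.9% fell and 14.6% rose. The same 13 genes fell at both ages and the same 3 rose at both ages, while 14.8% of all loci fell and 12.4% rose at both. No member changed in opposite directions at the ages, which 0.0467% of all loci did. Changes of at least 1 log2 unit, which is 2-fold, passed the test as 10 falls and 3 rises in juvenile plants (7.67% and 9.6% of all loci) and as 6 falls and 5 rises in adults (8.15% and 8.57%). Both submerged arrays lay below both controls for 21 members in juvenile plants and 17 in adults, where 37.7% and 35.6% of all loci did so. They lay above for 7 members at each age, against 29.6% and 30.6% of all loci. The median log2 change of the family was -0.32 in juvenile and -0.27 in adult plants, beside -0.05 and -0.02 over all loci. The juvenile median was -0.57 without submerged juvenile replicate 1. With the dimmest 50% of loci removed, by a mean that included submerged arrays, the medians of the 20 members left were -1.0 and -0.71. The medians over all loci are not those of this brighter group and are no reference for them.

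**Figure D1:**
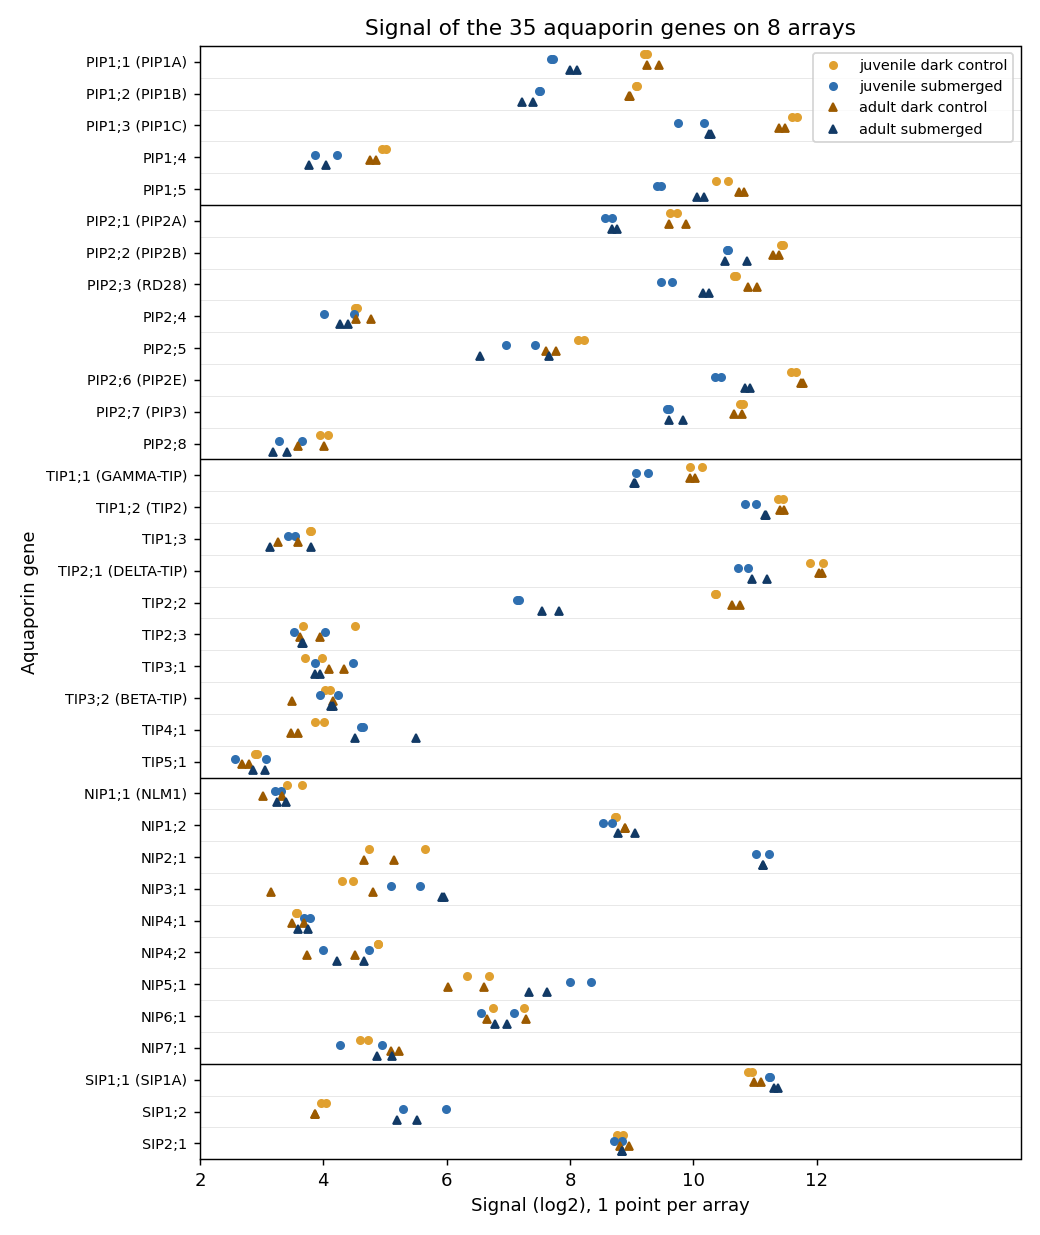
Log2 signal (horizontal axis) of the 35 aquaporin genes (rows, grouped by subfamily), with 1 point per array. Circles are juvenile and triangles adult plants, orange and brown are dark controls, blue and dark blue are submerged. All 5 PIP1 genes lie lower under water, and NIP2;1 lies at 11.02 or above in all 4 submerged arrays and at 5.65 or below in all 4 controls.

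The PIP1 and PIP2 subfamilies had larger shares of changed genes than all loci, of which 34.2% changed in juvenile and 33.6% in adult plants. The shares were 100% for PIP1 and 62.5% for PIP2 at each age. They were nearer those of all loci for TIP (40% at each age), NIP (22.2% and 33.3%) and SIP genes (33.3% at each age). All 5 PIP1 genes fell at both ages, with a median change of -1.52 in juvenile and -1.17 in adult plants. Of the 8 PIP2 genes, 5 fell at each age and 0 rose, with medians of -1.02 and -0.70. The TIP genes were mixed, with 4 of 10 falling in juvenile plants, 3 falling and 1 rising in adult plants, and medians of -0.31 and -0.20. Among the 9 NIP genes 0 fell, and 2 rose in juvenile and 3 in adult plants (medians -0.05 and 0.14). Of the 3 SIP genes 1 rose at each age (medians 0.32 and 0.31). The subfamily medians moved when 1 array was left out, and the juvenile NIP median changed sign. The juvenile NIP median ran from -0.11 to 0.22 when 1 array was left out, being above 0 without either submerged juvenile array or without control juvenile replicate 2, and the adult one was 0.02 and 0.29 without control adult replicate 1 and 2. The juvenile TIP median ran from -0.45 (without submerged juvenile replicate 1) to -0.19 (without control juvenile replicate 1). The adult one ran from -0.28 (without submerged adult replicate 2) to -0.13 (without control adult replicate 1). Juvenile and adult medians of PIP1 genes ran from -1.54 to -1.46 and from -1.18 to -1.12. Those of PIP2 genes ran from -1.08 to -0.96 and from -0.82 to -0.69. With dim loci removed, the juvenile and adult medians were 0.76 and 0.59 for NIP and 0.14 and 0.14 for SIP genes. For the 4 TIP genes left they were -1.03 and -0.96, near the -1.08 and -0.81 of the 6 PIP2 genes left. For the 4 PIP1 genes left they were -1.55 and -1.23. That filter used the mean over all 8 arrays, submerged ones included, so it was not independent of the response. NIP2;1, with control means of 5.20 in juvenile and 4.90 in adult plants, passed it through its submerged arrays. It was 1 of the 4 NIP genes left, so these NIP medians do not show a rise of the subfamily. These counts and medians describe the subfamilies, and no test of one subfamily against another was made.

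**Figure D2:**
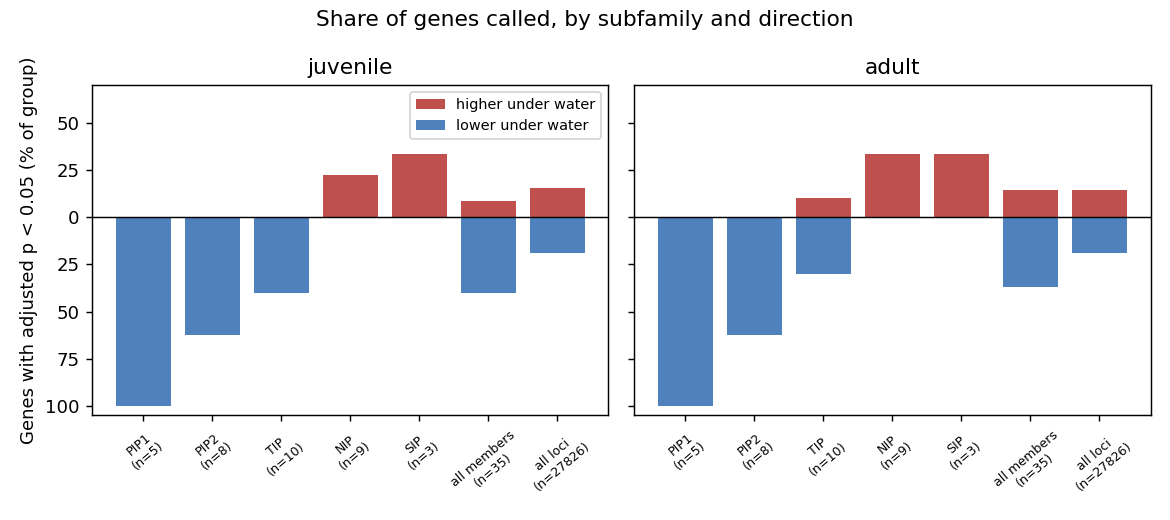
Share of genes with an adjusted p under 0.05 in each subfamily, in all 35 members and in all 27826 loci, drawn upward for genes higher and downward for genes lower under water, for juvenile (left) and adult (right) plants. Every PIP1 gene was called lower at both ages, and no NIP or SIP gene was called lower at either age.

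PIP1 proteins are surface channels that, as shown in maize, reach the plasma membrane together with PIP2 partners. PIP1B (PIP1;2, AT2G45960), which in Arabidopsis has been linked to carbon dioxide entry into leaf cells, read 9.06 and 9.09 in juvenile controls against 7.49 and 7.51 in submerged juvenile plants, and 8.98 and 8.96 in adult controls against 7.22 and 7.40 in submerged adults. Every submerged array of PIP1B was lower than every control array. The log2 change was -1.57 (SE 0.11, limma adjusted p 7.4e-05) in juvenile plants and -1.65 (SE 0.11, limma adjusted p 7.3e-05) in adults, falls of 2.98-fold and 3.15-fold.

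PIP1C (PIP1;3, AT1G01620) read 11.68 and 11.59 in juvenile controls, 9.76 and 10.18 in submerged juveniles, 11.49 and 11.39 in adult controls, and 10.28 and 10.26 in submerged adults. It fell by 1.67 in juveniles (limma adjusted p 0.00024) and 1.17 in adults (limma adjusted p 0.0013), and the difference of 0.50 had a 95% interval of -0.02 to 1.02. PIP1A (PIP1;1, AT3G61430) went from 9.24 and 9.20 to 7.72 and 7.69 in juvenile plants, and from 9.24 and 9.45 to 8.00 and 8.11 in adults. The PIP1A arrays of the 2 treatments did not overlap at either age, and the changes were -1.52 and -1.29 (SE 0.12 each).

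PIP1;5 (AT4G23400) went from 10.56 and 10.37 to 9.41 and 9.48 in juvenile plants and from 10.74 and 10.82 to 10.17 and 10.05 in adults. It fell 2.03-fold in juvenile plants and 1.59-fold in adults (limma adjusted p 0.00074 and 0.0053). PIP1;4 (AT4G00430) was the dimmest PIP1 gene, between 3.77 and 5.02 on all arrays. Its log2 changes were -0.94 and -0.90 (limma adjusted p 0.0039 and 0.0049).

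PIP2 proteins are the more active water channels of the plasma membrane. PIP2E (PIP2;6, AT2G39010), a leaf PIP2, had the largest PIP2 fall in juvenile plants: it read 11.66 and 11.58 in controls and 10.35 and 10.45 under water, a change of -1.22 (SE 0.11, limma adjusted p 0.00021). In adults it went from 11.77 and 11.74 to 10.91 and 10.84, a change of -0.88 (SE 0.11, limma adjusted p 0.00097). In both ages the submerged arrays lay below the controls, and the adult submerged arrays lay above the juvenile submerged ones.

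PIP3 (PIP2;7, AT4G35100) read 10.76 and 10.80 in juvenile controls, 9.57 and 9.60 in submerged juveniles, 10.66 and 10.78 in adult controls, and 9.60 and 9.83 in submerged adults. PIP2A (PIP2;1, AT3G53420), whose protein acts in leaf veins, guard cells and roots, read 9.74 and 9.62, then 8.57 and 8.68, in juvenile controls and submerged juveniles, and 9.88 and 9.61, then 8.76 and 8.68, in the adult groups. Both genes were lower under water on every array, with log2 changes of -1.19 and -1.01 (juvenile and adult) for PIP3 and -1.05 and -1.02 for PIP2A, and limma adjusted p between 0.00041 and 0.0012.

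RD28 (PIP2;3, AT2G37180), named for its response to desiccation, read 10.69 and 10.66 in juvenile controls and 9.66 and 9.47 in submerged juveniles. In adults it read 10.88 and 11.03 in controls and 10.16 and 10.25 under water. The fall was 2.17-fold in juvenile and 1.68-fold in adult plants (limma adjusted p 0.00053 and 0.0034). Its neighbour on the chromosome, PIP2B (PIP2;2, AT2G37170), fell, with log2 changes of -0.88 and -0.64 (limma adjusted p 0.0031 and 0.013). PIP2B and RD28 are close copies, and signals of close copies on an array may mix, so their values are not certain to be separate. The adult call of PIP2B was lost without submerged adult replicate 2 (limma adjusted p 0.053) or control adult replicate 2 (0.075).

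The other 3 PIP2 genes did not pass the test at either age. PIP2;4 changed by -0.28 and -0.32 and PIP2;8 by -0.54 and -0.50, both on low signals between 3.19 and 4.77. PIP2;8 passed in juveniles after median centring (limma adjusted p 0.027) and in adults after quantile normalization (0.042). PIP2;5 (AT3G54820) differed from controls by -0.98 in juveniles (limma adjusted p 0.069) and by -0.59 in adults (0.24). The juvenile change passed under 6 alternatives, which were median centring (0.036), an intensity trend (0.028), removal of dim loci (0.041), a fit of only the 4 arrays compared (0.020) and omission of either submerged adult array (0.0090). Its submerged adult arrays read 6.54 and 7.66, a gap of 1.12 between replicates, and without submerged adult replicate 2 the adult change was -1.15 (limma adjusted p 0.013).

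**Figure D3:**
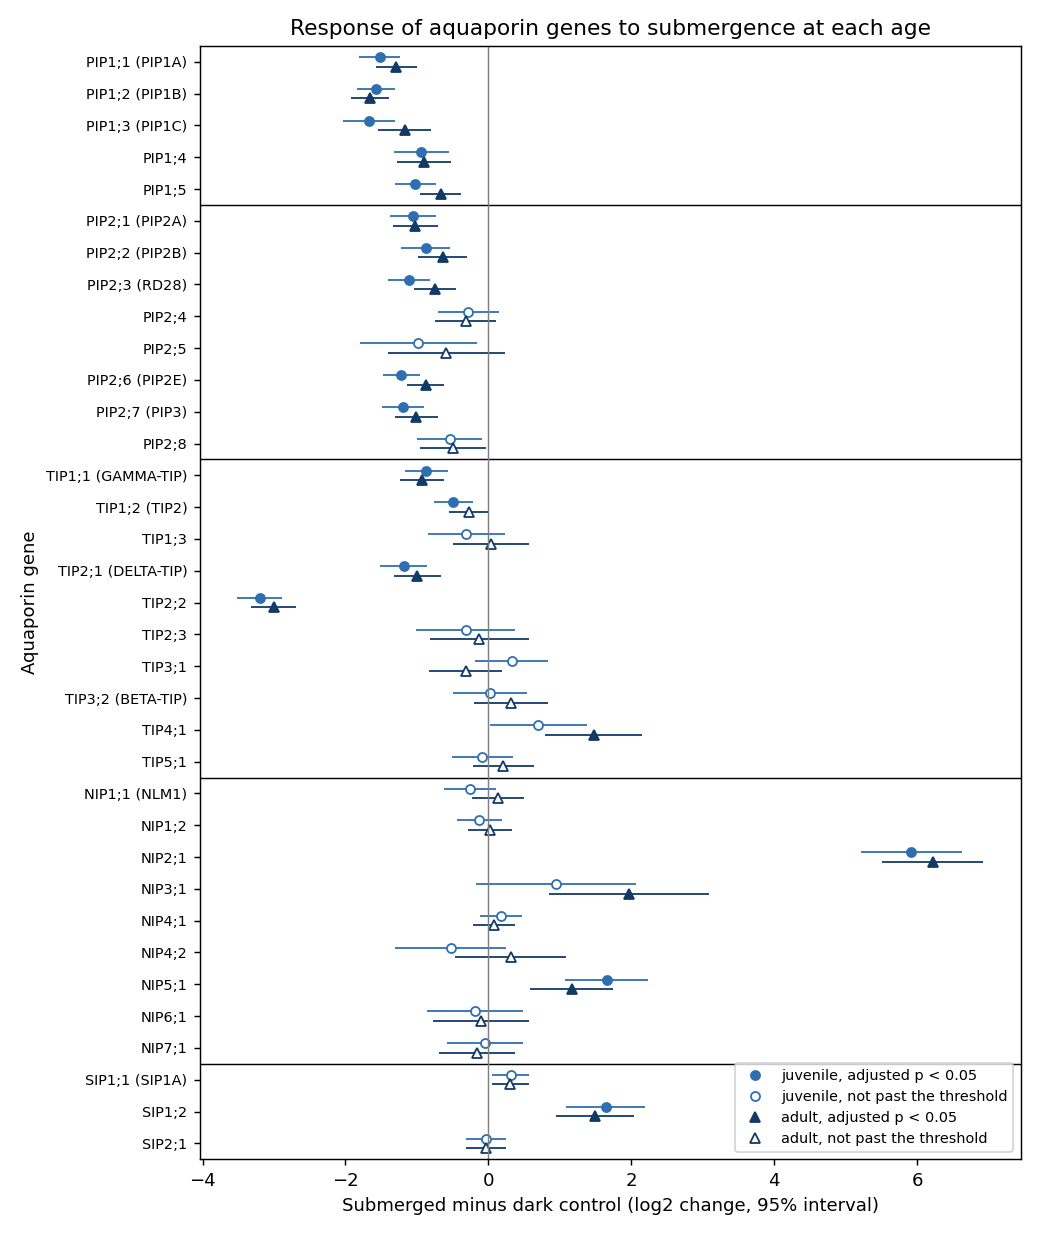
Log2 change from dark control to submerged (horizontal axis) for each aquaporin gene, for juvenile (circles) and adult (triangles) plants. Bars are 95% intervals from limma and filled symbols mark an adjusted p under 0.05. All 13 PIP genes lie to the left of 0, NIP2;1 lies near 6 at both ages, and the intervals of the 2 ages overlap for each of the 35 genes.

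Of the vacuolar TIP genes, TIP2;2 (AT4G17340) fell most in the whole family. Channels of its delta type conduct ammonia as well as water. It read 10.36 and 10.37 in juvenile controls against 7.17 and 7.14 in submerged juveniles, and 10.75 and 10.62 in adult controls against 7.82 and 7.54 in submerged adults. The groups were far apart: the change was -3.20 (SE 0.13, limma adjusted p 1.1e-05), a 9.20-fold fall, in juvenile plants and -3.00 (SE 0.13, limma adjusted p 1.6e-05), an 8.01-fold fall, in adults. It was the fall ranked 84 of all 27826 loci in juvenile plants and 108 in adults.

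Its relative DELTA-TIP (TIP2;1, AT3G16240) read 11.88 and 12.09 in juvenile controls, 10.73 and 10.89 in submerged juveniles, 12.08 and 12.04 in adult controls, and 10.96 and 11.18 in submerged adults. It fell 2.27-fold and 1.99-fold (limma adjusted p 0.00069 and 0.0016). GAMMA-TIP (TIP1;1, AT2G36830), an abundant water channel of the main vacuole, fell, with log2 changes of -0.87 and -0.93 (limma adjusted p 0.0019 and 0.0015). TIP2 (TIP1;2, AT3G26520) fell by 0.49 in juveniles (limma adjusted p 0.016) and changed by -0.27 in adults (0.12). The juvenile call of TIP2 was lost without juvenile control replicate 1 (limma adjusted p 0.061), juvenile control replicate 2 (0.0998) or submerged juvenile replicate 2 (0.067), and when only the 4 arrays compared were fitted (0.0505). With an intensity trend the adult change passed (limma adjusted p 0.014).

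TIP4;1 (AT2G25810), which transports water and urea, was the only TIP gene that rose. It read 4.01 and 3.86 in juvenile controls, 4.65 and 4.62 in submerged juveniles, 3.48 and 3.60 in adult controls, and 5.50 and 4.52 in submerged adults. Submerged arrays lay above controls at both ages, with a change of 1.48 in adults (SE 0.29, limma adjusted p 0.0070) and 0.70 in juveniles (limma adjusted p 0.11). The juvenile change passed when only the 4 arrays compared were fitted (limma adjusted p 0.016) or without either submerged adult array (0.0066). The difference between the ages was 0.78, with a 95% interval of -0.18 to 1.74, and the submerged adult arrays were 0.98 apart.

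The remaining TIP genes are known mainly from other organs, TIP3;1 and BETA-TIP from seeds, TIP1;3 and TIP5;1 from pollen and TIP2;3 from roots. Their signals lay between 2.57 and 4.51 on all arrays, and none passed the test in either direction, with changes from -0.32 to 0.33. Omission of 1 array gave a call for BETA-TIP in adults (without control replicate 1, limma adjusted p 0.042) and for TIP3;1 in juveniles (without submerged replicate 2, 0.048). The seed markers CRA1 and OLEO1 and the pollen marker VGD1 were similarly dim.

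NIP2;1 (AT2G34390) had by far the largest response of the family. In Arabidopsis roots this channel is known to be induced by low oxygen and to pass lactic acid, a product of fermentation. Here it read 5.65 and 4.75 in juvenile controls against 11.22 and 11.02 in submerged juveniles, and 4.65 and 5.15 in adult controls against 11.12 and 11.12 in submerged adults. The 4 submerged arrays lay close together, from 11.02 to 11.22, and the 4 controls spread from 4.65 to 5.65. The change was 5.92 (SE 0.30, limma adjusted p 2.2e-05) in juvenile plants and 6.22 (SE 0.30, limma adjusted p 2.3e-05) in adults, rises of 60.5-fold and 74.5-fold. Among all loci it ranked 54 from the top in juvenile plants and 28 in adults. The difference between the ages was 0.30, with an SE of 0.42 (limma adjusted p 0.93).

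NIP5;1 (AT4G10380), a boric acid channel known for boron uptake by roots, read 6.69 and 6.34 in juvenile controls, 8.00 and 8.34 in submerged juveniles, 6.02 and 6.61 in adult controls, and 7.63 and 7.33 in submerged adults. Submerged arrays were higher at both ages, by 1.65 in juveniles (SE 0.24, limma adjusted p 0.0019) and 1.17 in adults (SE 0.24, limma adjusted p 0.0095). The adult call was lost without submerged adult replicate 1 (limma adjusted p 0.056) or control adult replicate 1 (0.051). The shoot boric acid channel NIP6;1 (AT1G80760) changed by -0.19 and -0.10, with arrays of the treatments overlapping at both ages.

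NIP3;1 (AT1G31885), an arsenite channel, read 4.30 and 4.48 in juvenile controls, 5.09 and 5.57 in submerged juveniles, 3.15 and 4.80 in adult controls, and 5.92 and 5.96 in submerged adults. It rose by 1.97 in adults (SE 0.47, limma adjusted p 0.017), with the control adult arrays 1.65 apart, while the juvenile change was 0.95 (limma adjusted p 0.18). The adult call was lost without submerged adult replicate 1 (limma adjusted p 0.066) or replicate 2 (0.070). Without control adult replicate 1, the array at 3.15, the adult rise was 1.14. The juvenile change passed without either control adult array (limma adjusted p 0.012) or when only the 4 arrays compared were fitted (0.024). The other 5 NIP genes (NLM1, NIP1;2, NIP4;1, NIP4;2 and NIP7;1) did not pass the test, with changes from -0.52 to 0.32. The NIP4 pair, known from pollen, are neighbours on the chromosome and, as close relatives, may share signal.

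Among the SIP genes of the endoplasmic reticulum, SIP1;2 (AT5G18290) read 3.96 and 4.04 in juvenile controls, 5.99 and 5.28 in submerged juveniles, 3.86 and 3.87 in adult controls, and 5.52 and 5.20 in submerged adults. All submerged arrays lay above all controls. The rise was 3.12-fold in juvenile and 2.82-fold in adult plants (limma adjusted p 0.0016 and 0.0026). Its control signals lay within the range of the seed and pollen or flower markers (up to 4.20) and are not shown to be above background, so these folds may be lower bounds. The same holds for the controls of TIP4;1. PIP1;4 read 3.77 to 4.23 in the submerged arrays, within or just above that range, so its falls may be lower bounds too. Control adult replicate 1 of NIP3;1, at 3.15, also lay in that range. SIP1A (SIP1;1, AT3G04090), a bright gene between 10.88 and 11.37, changed by 0.32 and 0.31 with arrays that did not overlap, and did not pass the test (limma adjusted p 0.065 and 0.072). It passed at both ages with an intensity trend (0.0035 and 0.0043) and with dim loci removed (0.022 and 0.025), and in juveniles with quantile normalization (0.043). SIP2;1 (AT3G56950) stayed between 8.71 and 8.96, with changes of -0.03 (95% interval -0.31 to 0.25) in juvenile plants and -0.04 (-0.32 to 0.24) in adults.

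**Figure D4:**
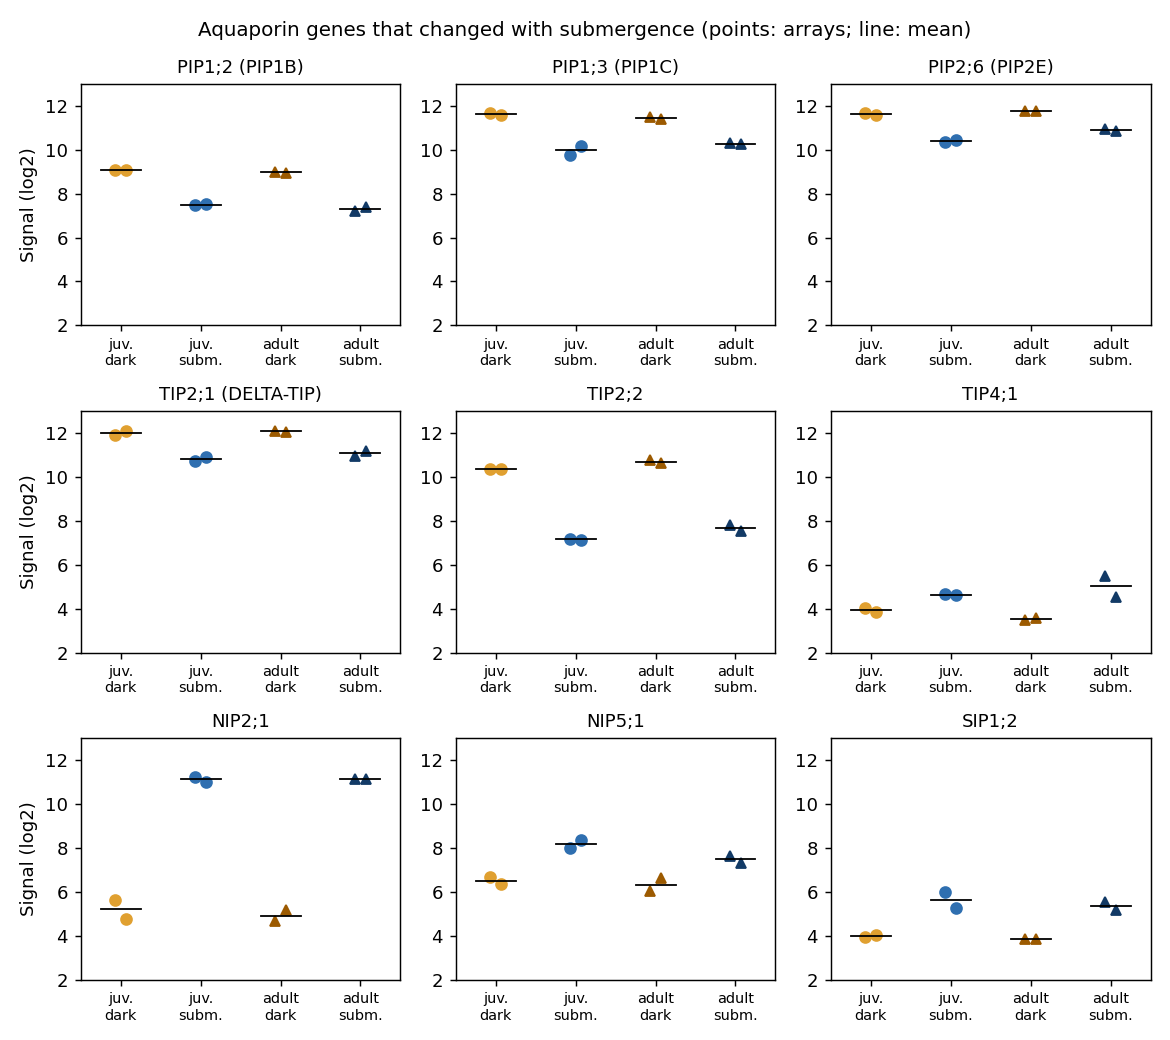
Log2 signal of 9 aquaporin genes in the 4 groups (juv., juvenile; subm., submerged). Points are single arrays and lines group means, on 1 common axis. The 5 genes in the panels from PIP1B to TIP2;2 lie lower under water and the other 4 higher, with treatments not overlapping within an age.

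The family was also split by signal strength. Of the 35 genes, 20 were brighter than the median locus by their mean over the 8 arrays, and 15 of these changed in juvenile plants and 14 in adults (75% and 70%, against 47.7% and 46.7% of all loci in that brighter group). Of the 15 dimmer genes 2 changed in juvenile plants and 4 in adults (13.3% and 26.7%, against 20.8% and 20.5%). The dim genes that changed in adults were PIP1;4, TIP4;1, NIP3;1 and SIP1;2. The mean over the 8 arrays includes the submerged ones, so this split is not independent of the calls. NIP2;1, with control arrays from 4.65 to 5.65, counts as brighter through its submerged arrays. Dim genes may have compressed changes on arrays, so a gene that did not pass the test at low signal is not shown to be unchanged.

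Between adult and juvenile plants, 0 of the 35 genes passed the test with limma in either treatment. In dark controls 0.0539% of all loci passed, and 2 aquaporins reached an unadjusted p under 0.05 (10.1% of all loci did), PIP1;5 (0.31 higher in adults) and TIP2;2 (0.32 higher). The smallest limma adjusted p of the family was 0.46, and the 95% intervals of all 35 differences lay within -1.54 and 1.04. In submerged plants 0.126% of all loci passed, and 6 aquaporins reached an unadjusted p under 0.05, beside 11.8% of all loci. Of these, PIP1;5 (0.67, 95% interval 0.38 to 0.95), RD28 (0.64, 0.35 to 0.94), PIP2E (0.48, 0.22 to 0.74), TIP2;2 (0.52, 0.21 to 0.83) and PIP1A (0.36, 0.07 to 0.64) were higher and NIP5;1 (-0.69, -1.27 to -0.11) lower in adults. Their limma adjusted p lay between 0.12 and 0.35. With an intensity trend and a robust prior in limma, PIP1;5, RD28 and PIP2E passed (limma adjusted p 0.012, 0.014 and 0.013).

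**Figure D5:**
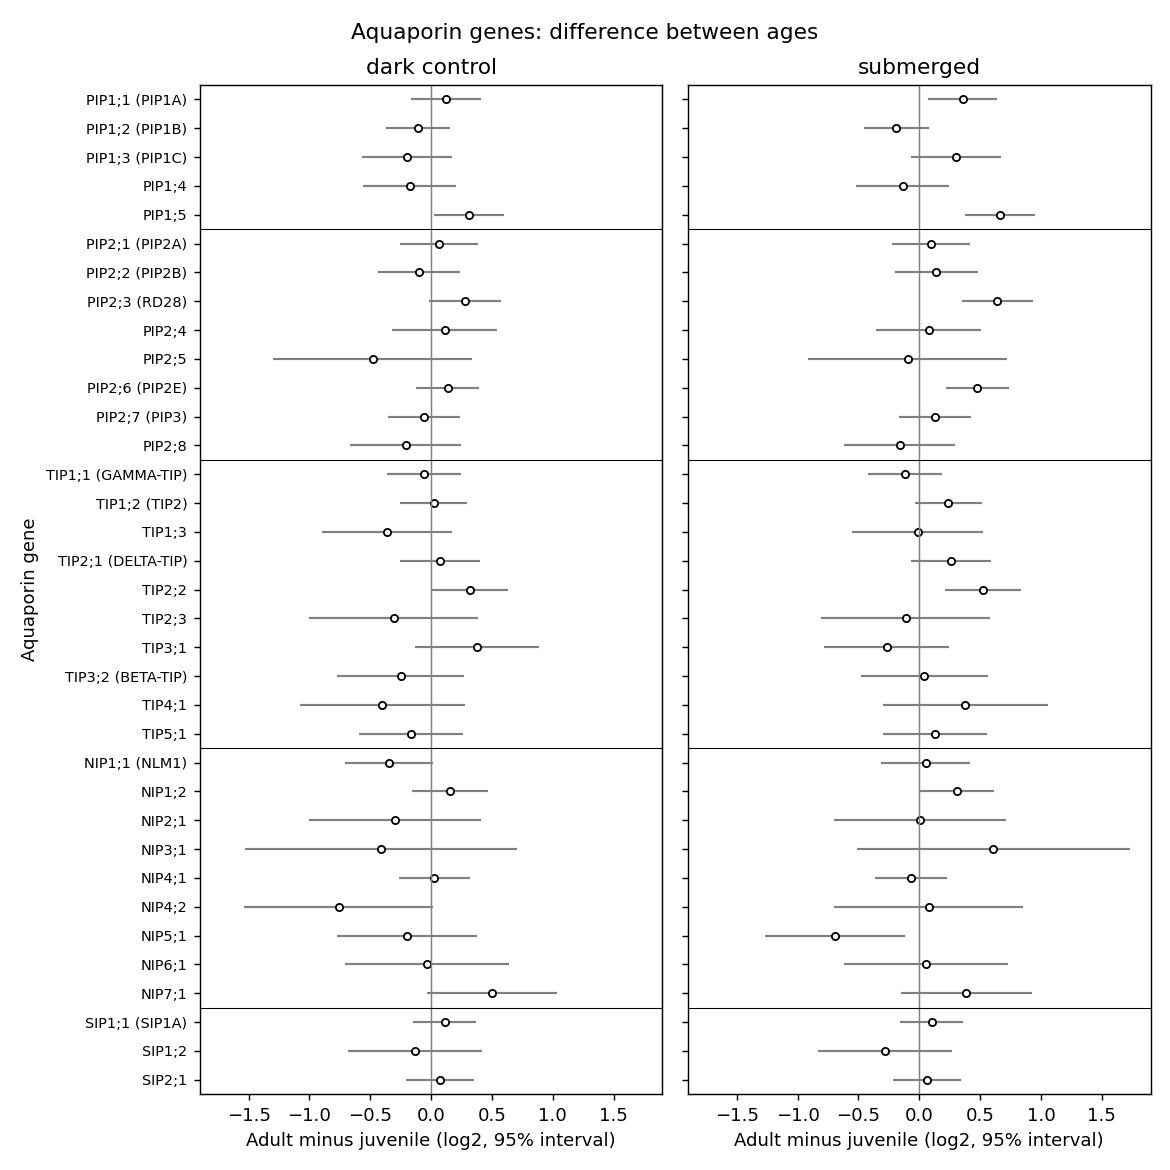
Adult minus juvenile log2 difference of each aquaporin gene in dark controls (left) and in submerged plants (right), with 95% intervals from limma. None passed an adjusted p of 0.05. The intervals are not adjusted for the number of genes. In submerged plants 4 PIP genes and 1 TIP gene have intervals above 0, and 1 NIP gene has one below 0. Of all loci, 11.8% had an unadjusted p under 0.05 with limma in that comparison.

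The interaction, which is the adult minus the juvenile response, called 0 of the 35 genes and 0% of all loci with limma. An unadjusted p under 0.05 was reached by 0 aquaporins and 7.3% of all loci, and the smallest limma adjusted p was 0.71, for PIP1C. The median interaction of the family was 0.19, with 25 of 35 genes positive, beside a median of 0.00156 and 50.3% positive over all loci. Medians of all loci shifted between groups, by 0.13 for submergence in juvenile plants and by -0.17 for the interaction, and after centring arrays on their medians, which raises the interaction of every locus alike, 33 of 35 genes were positive with a median of 0.36, beside 71.9% positive and a median of 0.17 over all loci. The genes share the same 8 arrays, so these counts of signs describe the family and are no test. A positive value can be a smaller fall or a larger rise in adults. The 95% intervals ran as wide as -0.56 to 2.60 for NIP3;1, so at 2 arrays a group its difference of 1.02 could not be told from 0.

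Genes known to act on or with aquaporins were examined as a list of 21 partners, compiled from general knowledge with earlier results of these data known. At each age 7 rose and 6 fell, the same 13 genes at both ages, which is 61.9% against 34.2% and 33.6% of all loci. Most partners lay in the brighter group, where 47.7% and 46.7% of all loci changed in juvenile and adult plants. The share describes the list and is no test of it. The median changes of the list were -0.04 and -0.03. OST1 (AT4G33950), a kinase of stomatal closure that phosphorylates PIP2A, went from 8.35 and 8.26 to 10.46 and 10.47 in juvenile plants and from 8.12 and 8.13 to 10.07 and 10.27 in adults, rises of 2.16 and 2.05 (limma adjusted p 2.85e-05 and 4.3e-05). SYP121 (AT3G11820), a syntaxin that delivers PIPs to the plasma membrane, rose by 2.50 and 2.46. XND1 (AT5G64530), a transcription factor that lowers root water transport, rose by 2.66 and 3.00.

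TSPO (AT2G47770), which directs PIP3 to degradation, fell (-2.01 and -2.83), to signals between 2.67 and 2.84 in the submerged arrays. Those signals are as dim as the seed and pollen markers and not shown to be above background, so the falls may be lower bounds. BOR1 (AT2G47160), a borate exporter that works with NIP5;1 in roots, fell (-1.83 and -1.45). The other called genes with changes of at least 1 at both ages were AT4G17260, which rose by 2.67 and 2.43, and AT3G24715, which fell (-2.45 and -2.81), both unnamed in the gene table used. Of the ubiquitin ligases that act on PIP2A or its relatives, RMA3 rose by 0.73 and 0.46, and RMA1 (-0.04 and 0.09) and RMA2 (-0.45 and -0.10) did not pass the test. RMA2 passed in juveniles under 4 alternatives (limma adjusted p 0.018 to 0.040). The adult call of RMA3 was lost without adult submerged replicate 1 (limma adjusted p 0.065) or 2 (0.080) or adult control replicate 2 (0.126), or when only the 4 arrays compared were fitted (0.059). The plasma membrane proton pumps AHA1 and AHA2 did not pass it either, with changes from -0.18 to 0.00. The vacuolar pyrophosphatase AVP1 (AT1G15690) fell (-0.61 and -0.37, limma adjusted p 0.0052 and 0.043). Its adult call was lost with the replicate block (limma adjusted p 0.066), with median centring (0.067), when only the 4 arrays compared were fitted (0.089), and without any 1 of the adult or juvenile control arrays or submerged adult arrays (limma adjusted p 0.079 to 0.18). Calls of UBC32 (AT3G17000, -0.50 and -0.52) and AT3G02880 (0.74 and 0.67) were each lost at both ages on omission of some single arrays (limma adjusted p 0.053 to 0.084).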

How the data were processed

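Affymetrix arrays of total RNA from 8 shoot samples were used. The authors deposited 1 log2 value per locus and array; the unit was judged from the range of the values and from RMA, which the submitters' processing notes name together with limma. Array model, probe assignment and genome build are not given in the sources used here. Probe-level background was not used, so no gene could be called undetected. Gene symbols came from a RefSeq table for TAIR10.1, which held 35 of the 35 members, and no coordinates or sequences are given.

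The 4 group means were estimated jointly for 27826 loci on 8 arrays with limma 3.58.1 in R 4.3.3 (lmFit, eBayes with default prior, 4 residual and 2.99 prior degrees of freedom). Contrasts were two-sided, with Benjamini-Hochberg adjustment over all loci in each comparison and a threshold of 0.05. The smallest p of an exact permutation test at this group size is 0.333, so calls rest on variance shared across loci. The number of arrays limits the precision, and the labels give no batch. Array values are printed for members that changed by at least 1 log2 unit at either age. Partner values are printed for genes called at both ages with changes of at least 1. The RMA ligases, the pumps, UBC32 and AT3G02880 were named after their values were seen. SIRK1 (-0.96 in juveniles and -1.31 in adults) and CPK7 (0.59 and 0.63) were called at both ages but did not reach that size at both. The members and lists were chosen with earlier results of these data known. The fit was tested on simulated data, but no result of that is given here and no call rests on it. Figures used matplotlib 3.10.9 in Python 3.11.15. Alternatives were quantile normalization, median centring, an intensity trend with robust prior, a threshold of 0.01, a 2-fold filter, removal of the dimmest 50% of loci, fits of only the 4 arrays compared, the replicate number as a block, and omission of each array.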

Additional observations from a re-analysis of the deposited data

How the results depend on the processing

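The counts of 17 changed aquaporins in juvenile and 18 in adult plants stayed within 1.5 times under the alternatives tried, except that 11 adult genes (5 higher, 6 lower) were left when a change of at least 1 log2 unit was also required. Omission of 1 array gave 16 to 19 genes in juvenile plants and 16 to 18 in adults. For the age differences in dark controls and in submerged plants and for the interaction, every omission gave 0. Between submerged ages the count of 0 became 3 with an intensity trend and robust prior, all 3 higher in adults; the cause was not tested. No called change of a member or partner reversed its sign under these alternatives. The titles number the replicates, but deviations of same-numbered arrays correlated between -0.11 and 0.05, so the numbers were not taken as pairs: with the replicate block 17 juvenile and 18 adult genes were called, the same ones, and 0 in the other 3 comparisons. Among the partners the block ended the adult call of AVP1 (limma adjusted p 0.066). Crossing the numbers of the submerged adult arrays, an alternative chosen after seeing the data, also gave 0 for the age difference under water. With the dimmest 50% of loci removed by their mean over all arrays, submerged ones included, 20 of the 35 members were left to test. Of these 17 and 15 were called. The single comparison fit on only 4 arrays was not run for the interaction, which needs all groups.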
